A study of Homo sapiens with 12 samples.

Results

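The genes of glucose uptake, glycolysis, the pyruvate dehydrogenase step and the pentose phosphate pathway were followed in HCT116 cells and in 2 lines recombined from them. The members were a list of 35 genes in 11 pathway steps, and every probe set whose platform gene symbol was a member was taken. A probe set is the group of short probes that reads 1 transcript on the array. For 33 of the 35 at least 1 probe set carried the member's symbol alone, and all 33 were tested, among 12852 genes tested of 19775 measured. They were read by 85 probe sets, of which 76 were tested, among 54675 on the array. The monocarboxylate transporter genes SLC16A1 and SLC16A3 were not analysed here, as the annotation used names no probe set for them alone.

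Glucose enters the cell through transporters of the SLC2A family, is phosphorylated by hexokinases so that it cannot leave again, and is split by glycolysis into pyruvate, with ATP and NADH made in the lower steps. Pyruvate is either reduced to lactate, which tumour cells often do even with oxygen present, or enters the mitochondrion through pyruvate dehydrogenase, which the PDK kinases inhibit. Glucose-6-phosphate can also leave for the pentose phosphate pathway, which makes NADPH and ribose phosphate, and fructose-6-phosphate for the hexosamine pathway, which supplies the sugars of glycoproteins.

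HCT116 is a human colorectal cancer cell line that carries an oncogenic RAS allele. In all 4 groups of 3 Affymetrix U133 Plus 2.0 arrays were compared. HCT116 control cells were taken at day 3 with vehicle or with 25 ng/ml doxycycline, the agent that switches on inducible vectors in other cells of the study. Hke3 and Hkh-2 are isogenic HCT116 lines made by homologous recombination, which are labelled as wild type for the RAS gene concerned, were grown in basal culture and are each a single clone. All were grown in DMEM with serum. Line and culture therefore differ together and cannot be told apart. Both comparisons with a recombined line use the same 3 vehicle arrays. Nothing in the labels says whether replicate arrays are separate cultures, so p-values measure the spread between these arrays, which may be technical. In such bulk RNA, fewer cells of a kind and less RNA per cell cannot be told apart.

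Values are log2 units of the deposited RMA signal, and a difference of 1 is a doubling of signal. Group means under 6 are called near background, and differences from them are lower bounds, set against 6. A gene is represented by the probe set with its highest mean signal and is called higher or lower at a limma adjusted p under 0.05, with Benjamini-Hochberg adjustment over all 12852 genes. Array medians were 5.80 to 5.86, and arrays of a group correlated with r of 0.993 to 0.998. 2 arrays stood apart, vehicle replicate 2 and Hke3 replicate 3, and what each added to its group mean correlated between them with r = 0.683 across the 12852 genes and r = 0.790 across the 33 members (genes are not independent replicates). The median absolute deviation of the members was 0.263 on the first and 0.227 on the second of these arrays, against 0.0449 to 0.194 on the other arrays. Of 13 epithelial and colon markers 10 were at 6 or more in every group, EPCAM and KRT18 among them, whereas LGALS4, CDH17 and GPA33 were under 6 in every group. The mean level over the 13 markers was 8.81 to 8.85 in the vehicle arrays, against 9.33 to 9.36 in Hkh-2, with the Hke3 arrays between them at 8.90 to 9.08. Of the leukocyte markers 1 of 4 reached 6 (PTPRC, the pan-leukocyte marker, had means of 3.80 to 3.94), and of the fibroblast markers 3 of 7, or 4 of 7 in Hkh-2, where COL3A1 had a mean of 6.73. Of the endothelial markers 2 of 4 reached 6 in the vehicle and doxycycline arrays (PECAM1 and VWF) and 1 of 4 (PECAM1) in each recombined line, while CDH5 and KDR were under 6 in every group. The mean level over these 4 markers was 5.09 to 5.23 in the vehicle arrays, 5.22 to 5.25 with doxycycline, 4.81 to 4.95 in the Hke3 arrays and 4.74 to 4.97 in those of Hkh-2, and both tested ones were higher in vehicle than in both lines. The part of these differences in the results was not tested.

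The members did not move as a block. Against Hke3, 11 of 33 members (33.3%) were higher in HCT116 vehicle cells and 4 (12.1%) were lower, beside 24.6% higher and 23.2% lower among all genes tested (47.8% called). The higher ones were SLC2A1, SLC2A3, HK2, GPI, PFKM, ALDOC, PKM, PDHA1, PGD, TALDO1 and RPIA, and the lower ones PFKFB3, ALDOA, ENO2 and GFPT1. SLC2A3 was near background in both of these groups and was kept for testing only through its Hkh-2 mean. The median difference was 0.12 over the members and 0.04 over all genes. Against Hkh-2, 4 members (12.1%) were higher and 5 (15.2%) lower, beside 14.3% and 21.7% of all genes (36% called). The higher ones were SLC2A1, PFKM, ALDOC and PKM, and the lower ones SLC2A3, HK1, ALDOA, PGLS and GFPT1. The 4 members SLC2A1, PFKM, ALDOC and PKM were higher than in both lines, 12.1% beside 9.04% of all genes, and ALDOA and GFPT1 were lower than in both, 6.06% beside 12.6%. With the doxycycline arrays in place of the vehicle arrays, SLC2A1 and PFKM stayed higher than in both lines. ALDOC was then not called against Hke3, PKM was called against neither line, and PFKFB2 was called higher than in both. ALDOA and GFPT1 stayed lower than in both. One member, SLC2A3, was called in opposite directions, as were 2.32% of all genes, and its call against Hke3 did not hold under several alternatives given with its values. The vehicle arrays lay above all Hke3 arrays for 9 members and below them for 4, beside 25.5% and 24% of all genes, and above all Hkh-2 arrays for 4 and below them for 8, beside 20.8% and 28.2%.

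These counts depended on single arrays. Without Hke3 replicate 2, 7 members were higher than in Hke3, and without Hkh-2 replicate 3, 2 were higher than in Hkh-2 and the same number higher than in both. Without vehicle replicate 1 or vehicle replicate 3, 1 member was lower than in both lines. Without both arrays that stood apart, 14 members were higher and 7 lower than in Hke3, with backgrounds of 29.8% and 24.7%, against 5 higher and 7 lower for Hkh-2, with backgrounds of 19.3% and 28.4%. Then 4 were higher than in both lines, 3 of them as before, and the 2 lower than in both were those named above.

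**Figure D1:**
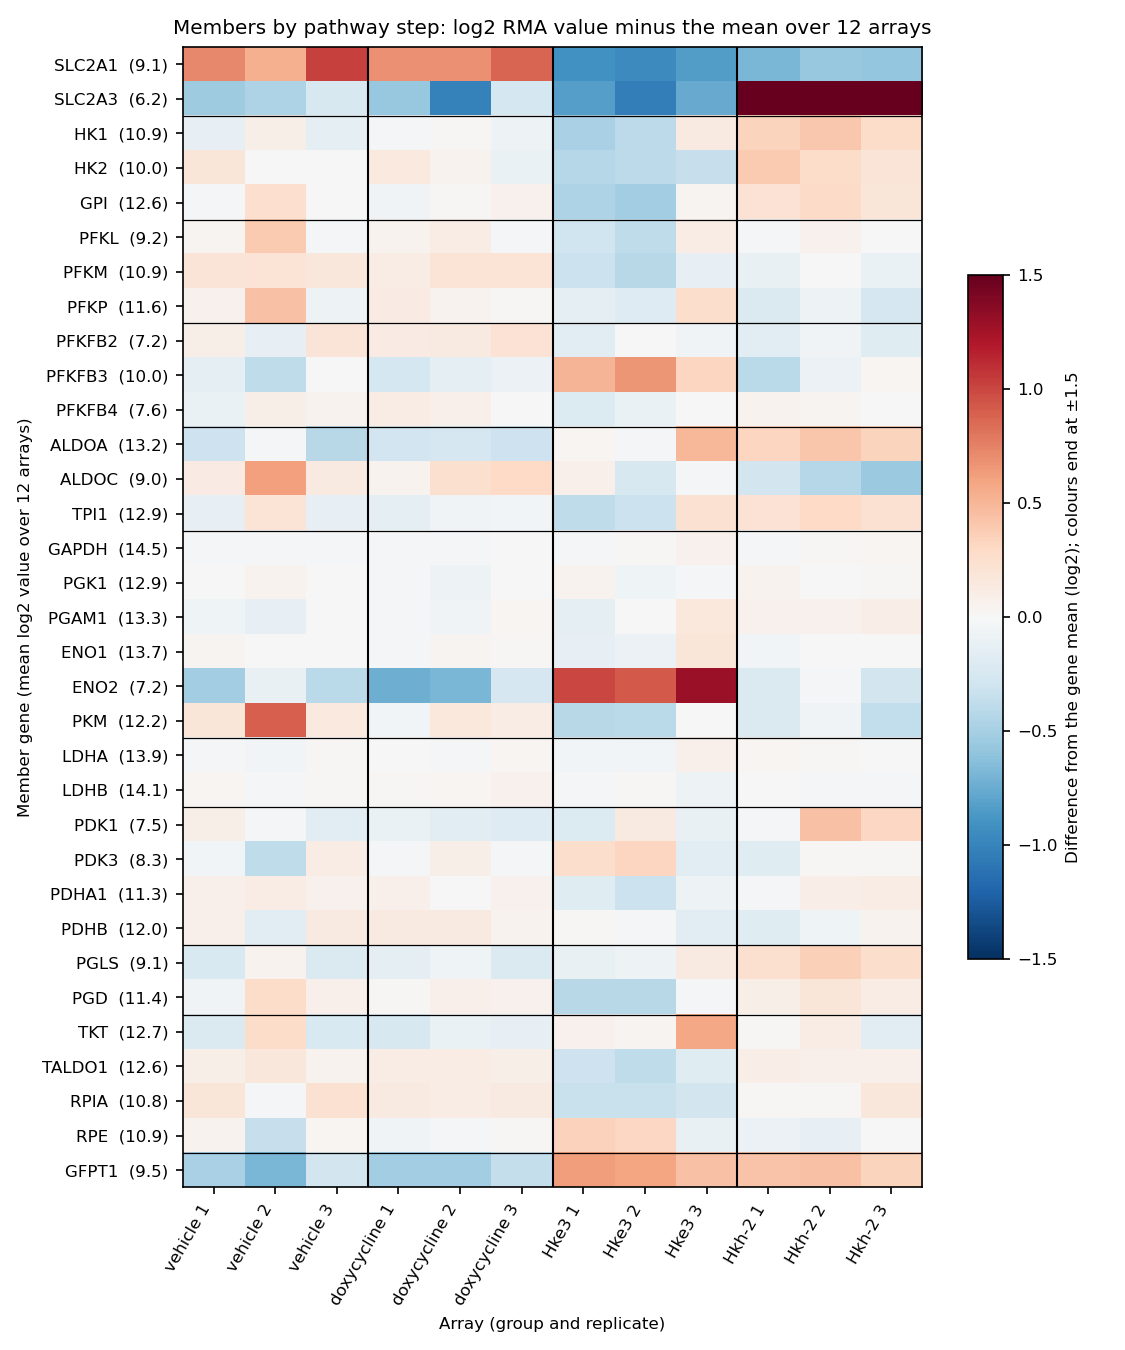
Signal of the 33 members on the 12 arrays, as the log2 RMA value minus the gene's mean over all arrays, with members in rows by pathway step (mean log2 value in brackets) and arrays in columns by group. Colours end at 1.5 in either direction. The vehicle and doxycycline columns of SLC2A1 are red and those of both recombined lines blue, SLC2A3 is red in Hkh-2 alone, and rows such as GAPDH, PGK1, LDHA and LDHB are close to white throughout.

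**Figure D2:**
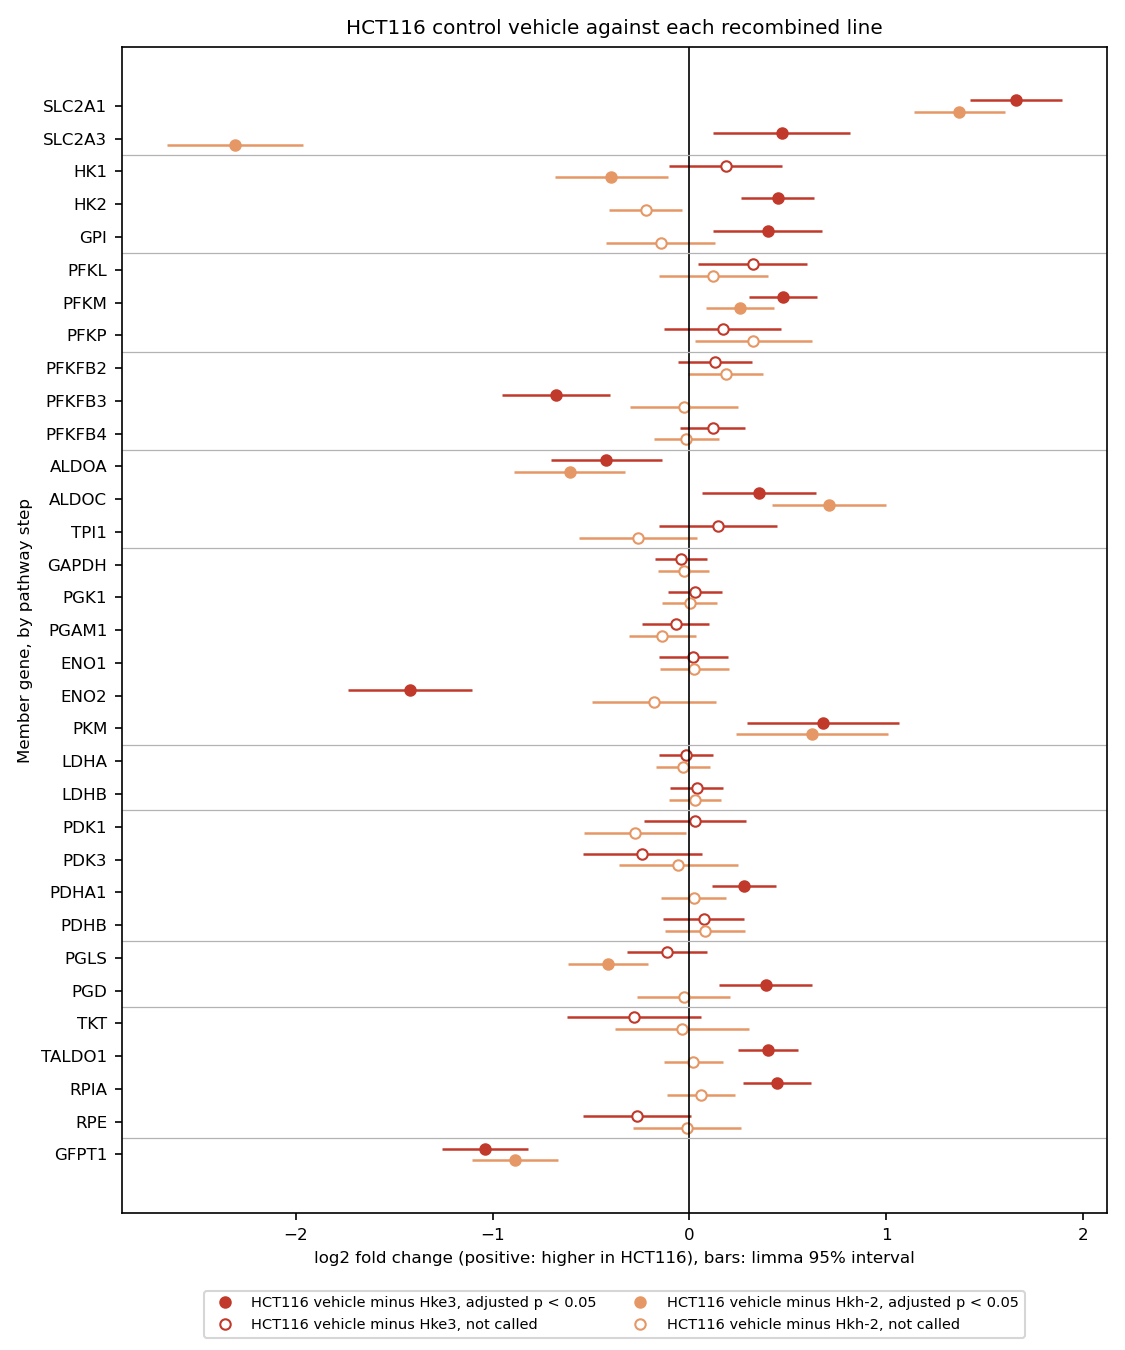
Difference of HCT116 control vehicle from Hke3 (dark red) and from Hkh-2 (orange) for each member on the log2 scale, with 95% limma intervals. Filled points have an adjusted p under 0.05, and positive values are higher in HCT116. SLC2A1 lies right of 0 and GFPT1 left of 0 in both comparisons, while ENO2 lies at -1.42 against Hke3 and -0.18 against Hkh-2.

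SLC2A1 encodes GLUT1, the transporter through which most cells take up glucose. It read 9.83, 9.64 and 10.12 in the vehicle arrays, 9.79, 9.79 and 9.98 with doxycycline, 8.19, 8.15 and 8.26 in Hke3 and 8.41, 8.54 and 8.53 in Hkh-2. All 6 HCT116 arrays lay above all 6 arrays of the recombined lines. HCT116 vehicle cells were higher by 1.66 than Hke3 (SE 0.108, limma adjusted p = 7.49e-08) and by 1.37 than Hkh-2 (SE 0.108, limma adjusted p = 4.99e-07). Hke3 was lower than Hkh-2 by a small margin, with a difference of -0.29 and a limma adjusted p of 0.0481, a call lost with each array's median subtracted (limma adjusted p = 0.0595) and under cyclic loess (limma adjusted p = 0.0790). The second SLC2A1 probe set was under 6 in every group and was not tested, with means of 5.76 in vehicle, 5.66 with doxycycline, 4.53 in Hke3 and 4.67 in Hkh-2.

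SLC2A3 encodes GLUT3, a transporter with a high affinity for glucose, best known from neurons. It read 5.70, 5.77 and 6.00 in the vehicle arrays, 5.66, 5.22 and 5.97 with doxycycline, 5.40, 5.19 and 5.47 in Hke3 and 8.30, 7.98 and 8.12 in Hkh-2. The Hkh-2 arrays stood above all others, and the means of the other groups were near background. Hkh-2 was therefore higher than HCT116 vehicle cells by at least 2.13, and also than Hke3 by at least 2.13. Both differences were called, but SLC2A3 passed the filter at 6 only through Hkh-2, the high group. These calls therefore lend the bounds no separate support, and their p-values are not given. The difference between vehicle and Hke3 passed the test (limma adjusted p = 0.0286), but no size is given as both means were under 6. That call was lost without vehicle replicate 3, Hke3 replicate 1 or Hke3 replicate 2 (limma adjusted p of 0.0537 to 0.107), under cyclic loess (limma adjusted p = 0.0656) and with the doxycycline arrays as HCT116 (limma adjusted p = 0.203). All 3 SLC2A3 probe sets were lower in vehicle cells than in Hkh-2. They are of the kinds that can bind several transcripts, so the near-identical paralogue SLC2A14 cannot be told apart from SLC2A3 here.

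The promoters of SLC2A1, GFPT1 and ENO2 are shown because these had the largest absolute differences from a recombined line among the members with a RefSeq promoter. The sequences are the 250 bases upstream of the RefSeq transcription start (GRCh38.p14), 5′ to 3′ on the gene's strand. Capitals mark the letters ACGTG or GCGTG on either strand, the core of the hypoxia response element.
SLC2A1 (chr1:42958869-42959118, minus strand): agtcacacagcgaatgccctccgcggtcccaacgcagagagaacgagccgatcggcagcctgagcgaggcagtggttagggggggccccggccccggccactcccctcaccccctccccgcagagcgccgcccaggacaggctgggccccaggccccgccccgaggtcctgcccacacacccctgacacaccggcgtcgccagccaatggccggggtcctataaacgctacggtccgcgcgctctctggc
GFPT1 (chr2:69387228-69387477, minus strand): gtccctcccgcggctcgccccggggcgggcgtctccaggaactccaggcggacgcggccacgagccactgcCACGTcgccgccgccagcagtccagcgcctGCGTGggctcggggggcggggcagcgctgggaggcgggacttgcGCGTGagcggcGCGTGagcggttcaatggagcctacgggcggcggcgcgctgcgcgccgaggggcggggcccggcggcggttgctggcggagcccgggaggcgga
ENO2 (chr12:6914330-6914579, plus strand): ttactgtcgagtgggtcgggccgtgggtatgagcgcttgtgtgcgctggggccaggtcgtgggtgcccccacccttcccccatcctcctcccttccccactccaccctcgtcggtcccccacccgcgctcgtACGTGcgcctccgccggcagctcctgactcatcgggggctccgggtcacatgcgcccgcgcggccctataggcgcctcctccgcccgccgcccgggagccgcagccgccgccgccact
The SLC2A1 window held 0 such cores, the GFPT1 window 4 and the ENO2 window 1. Of 58 promoters of 32 listed members, 32 (55.2%) held a core, against 43.2% of 35116 promoters of the same length. These 58 include promoters of SLC16A3, whose expression was not analysed here. CACGTG, the E-box, which itself holds ACGTG, was in 7 (12.1%) of the members' promoters and 6.34% of all. Several promoters of a gene overlap, a match is not a binding site, and no binding was measured.

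Hexokinase and glucose-6-phosphate isomerase carry out the first steps after uptake, and all 3 members of this step were lower in Hke3 than in Hkh-2. HK2, the inducible hexokinase of many tumours, read 10.14, 9.96 and 9.95 in vehicle, 10.11, 10.01 and 9.86 with doxycycline, 9.53, 9.56 and 9.62 in Hke3 and 10.34, 10.23 and 10.15 in Hkh-2. On this representative probe set the order of the groups was Hke3, then HCT116, then Hkh-2, and the vehicle arrays overlapped neither line. HK2 was higher in vehicle than in Hke3 by 0.45 (SE 0.0856, limma adjusted p = 0.000900), differed from Hkh-2 by -0.22 without passing the test (limma adjusted p = 0.0587; 0.0359 without vehicle replicate 1 and 0.0491 without Hke3 replicate 3), and was lower in Hke3 than in Hkh-2, with a difference of -0.67 (limma adjusted p = 5.21e-05). The other HK2 probe sets did not repeat this order in full. One had means of 7.01 in vehicle, 6.83 in Hke3 and 6.88 in Hkh-2 and was called in none of these comparisons. The other had means of 6.06 in vehicle and 6.36 in Hkh-2, was near background in Hke3, and was lower in Hke3 than in Hkh-2 by at least 0.36 (limma adjusted p = 0.00517 over all probe sets). HK1, the hexokinase of most tissues, read 10.74, 10.94 and 10.71 in vehicle, 10.82, 10.88 and 10.78 with doxycycline, 10.37, 10.47 and 10.997 in Hke3 and 11.19, 11.26 and 11.13 in Hkh-2. The vehicle arrays lay below those of Hkh-2, with a difference of -0.40 (SE 0.133, limma adjusted p = 0.0320), and overlapped those of Hke3, where the difference of 0.18 did not pass the test (limma adjusted p = 0.274). The HK1 call against Hkh-2 was lost without vehicle replicate 1 or 3 or without any 1 of the 3 Hkh-2 arrays, with limma adjusted p of 0.0572 to 0.0985, and under cyclic loess (limma adjusted p = 0.0527). Without Hke3 replicate 3 the difference from Hke3 was 0.38 (limma adjusted p = 0.00274).

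GPI, which converts glucose-6-phosphate to fructose-6-phosphate, read 12.61, 12.89 and 12.64 in vehicle, 12.58, 12.65 and 12.69 with doxycycline, 12.16, 12.11 and 12.67 in Hke3 and 12.85, 12.91 and 12.81 in Hkh-2. Hke3 replicate 3 reached into the range of the vehicle arrays. GPI was higher in vehicle than in Hke3 by 0.40 (SE 0.128, limma adjusted p = 0.0211), a call lost without vehicle replicate 2, Hke3 replicate 1 or Hke3 replicate 2 (limma adjusted p of 0.0834 to 0.0984). This call was also lost with the doxycycline arrays as HCT116 (limma adjusted p = 0.0541) and with the compared groups fitted alone (limma adjusted p = 0.0861). Against Hkh-2 the difference was -0.15 (limma adjusted p = 0.413), and without both arrays that stood apart it was -0.23 (limma adjusted p = 0.00950).

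Phosphofructokinase commits the sugar to glycolysis. PFKM, the muscle-type subunit, read 11.09, 11.10 and 11.06 in vehicle, 11.001, 11.09 and 11.10 with doxycycline, 10.58, 10.47 and 10.77 in Hke3 and 10.79, 10.89 and 10.79 in Hkh-2. The vehicle arrays lay above both lines, by 0.47 against Hke3 (SE 0.0803, limma adjusted p = 0.000360) and by 0.26 against Hkh-2 (SE 0.0803, limma adjusted p = 0.0239). The second call was lost without vehicle replicate 1, Hkh-2 replicate 1 or Hkh-2 replicate 3 (limma adjusted p of 0.0604 to 0.0764). The liver-type PFKL and the platelet-type PFKP passed neither test, with differences of 0.32 and 0.17 from Hke3 and of 0.12 and 0.32 from Hkh-2. Without both arrays that stood apart PFKL was called against Hke3, at 0.34 (limma adjusted p = 0.00223).

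The PFKFB enzymes set fructose-2,6-bisphosphate, the main activator of phosphofructokinase. PFKFB3, the isoform with the strongest kinase activity, read 9.82, 9.59 and 9.97 in vehicle, 9.72, 9.83 and 9.89 with doxycycline, 10.49, 10.64 and 10.29 in Hke3 and 9.58, 9.88 and 10.01 in Hkh-2. Hke3 was the high group, and the other groups overlapped. The difference was -0.68 against Hke3 (SE 0.127, limma adjusted p = 0.000765) and -0.03 against Hkh-2 (limma adjusted p = 0.886). PFKFB2 and PFKFB4 passed neither test on their representative probe sets. Without both arrays that stood apart PFKFB2 was called against Hke3, at 0.23 (limma adjusted p = 0.0336), and Hkh-2, at 0.27 (limma adjusted p = 0.0107). A second PFKFB4 probe set was higher than in Hke3 by at least 0.29. Of the 3 other PFKFB2 probe sets, 2 were higher than in Hke3, by at least 0.45 and at least 0.24, the latter also by at least 0.24 than in Hkh-2. The lines named here were near background on these probe sets.

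Aldolase splits fructose-1,6-bisphosphate, and its isoforms went opposite ways. ALDOA, the main isoform of muscle and most tumours, read 12.93, 13.23 and 12.82 in vehicle, 12.96, 12.995 and 12.93 with doxycycline, 13.28, 13.23 and 13.75 in Hke3 and 13.56, 13.66 and 13.58 in Hkh-2. The vehicle arrays lay below both lines, with the highest vehicle array and the lowest Hke3 array nearly level. The difference was -0.42 against Hke3 (SE 0.130, limma adjusted p = 0.0169) and -0.61 against Hkh-2 (SE 0.130, limma adjusted p = 0.00260), and all 3 ALDOA probe sets were lower than in both lines. The call against Hke3 was lost without vehicle replicate 1 (limma adjusted p = 0.0532) or vehicle replicate 3 (limma adjusted p = 0.0674). With the compared groups fitted alone that call was lost too (limma adjusted p = 0.0767). ALDOC, the brain-type isoform, read 9.12, 9.61 and 9.12 in vehicle, 9.05, 9.23 and 9.29 with doxycycline, 9.07, 8.76 and 8.96 in Hke3 and 8.71, 8.57 and 8.43 in Hkh-2. Vehicle replicate 2 was the highest array. ALDOC was higher than in Hkh-2 by 0.71 (SE 0.134, limma adjusted p = 0.00107). Against Hke3 it was higher by 0.35 (SE 0.134, limma adjusted p = 0.0447), a call lost without vehicle replicate 2, where the value was 0.19 (limma adjusted p = 0.192), and without doxycycline replicate 2 or 3, Hke3 replicate 2 or 3, or Hkh-2 replicate 2 (limma adjusted p of 0.0530 to 0.169), with each array's median subtracted (limma adjusted p = 0.0692) and under cyclic loess (limma adjusted p = 0.0632). The ALDOC call against Hke3 was also lost with no filter (limma adjusted p = 0.0560) and with the compared groups fitted alone (limma adjusted p = 0.106). The same held with the doxycycline arrays as HCT116 (limma adjusted p = 0.130). TPI1, which interconverts the triose phosphates, was not called against either line, with differences of 0.14 and -0.26. Without both arrays that stood apart TPI1 was called in opposite directions, at 0.23 against Hke3 (limma adjusted p = 0.0124) and -0.37 against Hkh-2 (limma adjusted p = 0.000376).

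Lower glycolysis held members that were even across the groups and members that were not. GAPDH, PGK1, PGAM1 and ENO1, and the lactate dehydrogenase genes LDHA and LDHB, were called in no comparison, and their differences were within 0.14 in all 4 comparisons. GAPDH read 14.42 to 14.44 in vehicle, 14.43 to 14.46 with doxycycline, 14.44 to 14.52 in the Hke3 arrays and 14.43 to 14.48 in Hkh-2. LDHB read 14.10 to 14.16, 14.15 to 14.19, 14.05 to 14.14 and 14.09 to 14.12 in the same order, and for both genes the vehicle arrays overlapped those of both lines. These are close to the highest values on the arrays, which were 14.78 to 14.85, and whether the signal still follows the amount of RNA there was not tested. ENO2, the neuronal-type enolase, was less even. It read 6.67, 7.08 and 6.79 in vehicle, 6.47, 6.51 and 6.95 with doxycycline, 8.20, 8.11 and 8.49 in Hke3 and 6.99, 7.17 and 6.92 in Hkh-2. Hke3 was the only high group, with a difference of -1.42 between vehicle and Hke3 (SE 0.146, limma adjusted p = 5.27e-06), against -0.18 for Hkh-2 (limma adjusted p = 0.371). Other probe sets of PGK1 and ENO1 were not as even, and 3 of them were higher in vehicle than in Hkh-2, by 0.20 and 0.32 for PGK1 and by 0.80 for ENO1. A further PGK1 probe set had vehicle differences of -0.35 from Hke3 and 0.71 from Hkh-2. Its difference of Hke3 from Hkh-2 was 1.06, and that of the ENO1 probe set was 1.04.

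PKM, pyruvate kinase, makes pyruvate in the last step of glycolysis, and its M1 and M2 isoforms were not told apart here. It read 12.35, 13.06 and 12.32 in vehicle, 12.13, 12.33 and 12.29 with doxycycline, 11.76, 11.76 and 12.18 in Hke3 and 11.95, 12.12 and 11.80 in Hkh-2. The vehicle arrays lay above both lines and replicate 2, one of the arrays that stood apart, was the highest. PKM was higher in vehicle than in Hke3 by 0.68 (SE 0.178, limma adjusted p = 0.00716) and than in Hkh-2 by 0.62 (SE 0.178, limma adjusted p = 0.0153). Without both arrays that stood apart the values were 0.58 (limma adjusted p = 0.000531) and 0.38 (limma adjusted p = 0.00515), and without Hkh-2 replicate 3 the second call was lost (0.54, limma adjusted p = 0.0647). With the doxycycline arrays in place of the vehicle arrays, PKM was not called, at 0.35 (limma adjusted p = 0.127) and 0.29 (limma adjusted p = 0.223). The second PKM probe set was higher than in Hke3 by 0.34 and differed from Hkh-2 by 0.21 without passing the test.

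**Figure D3:**
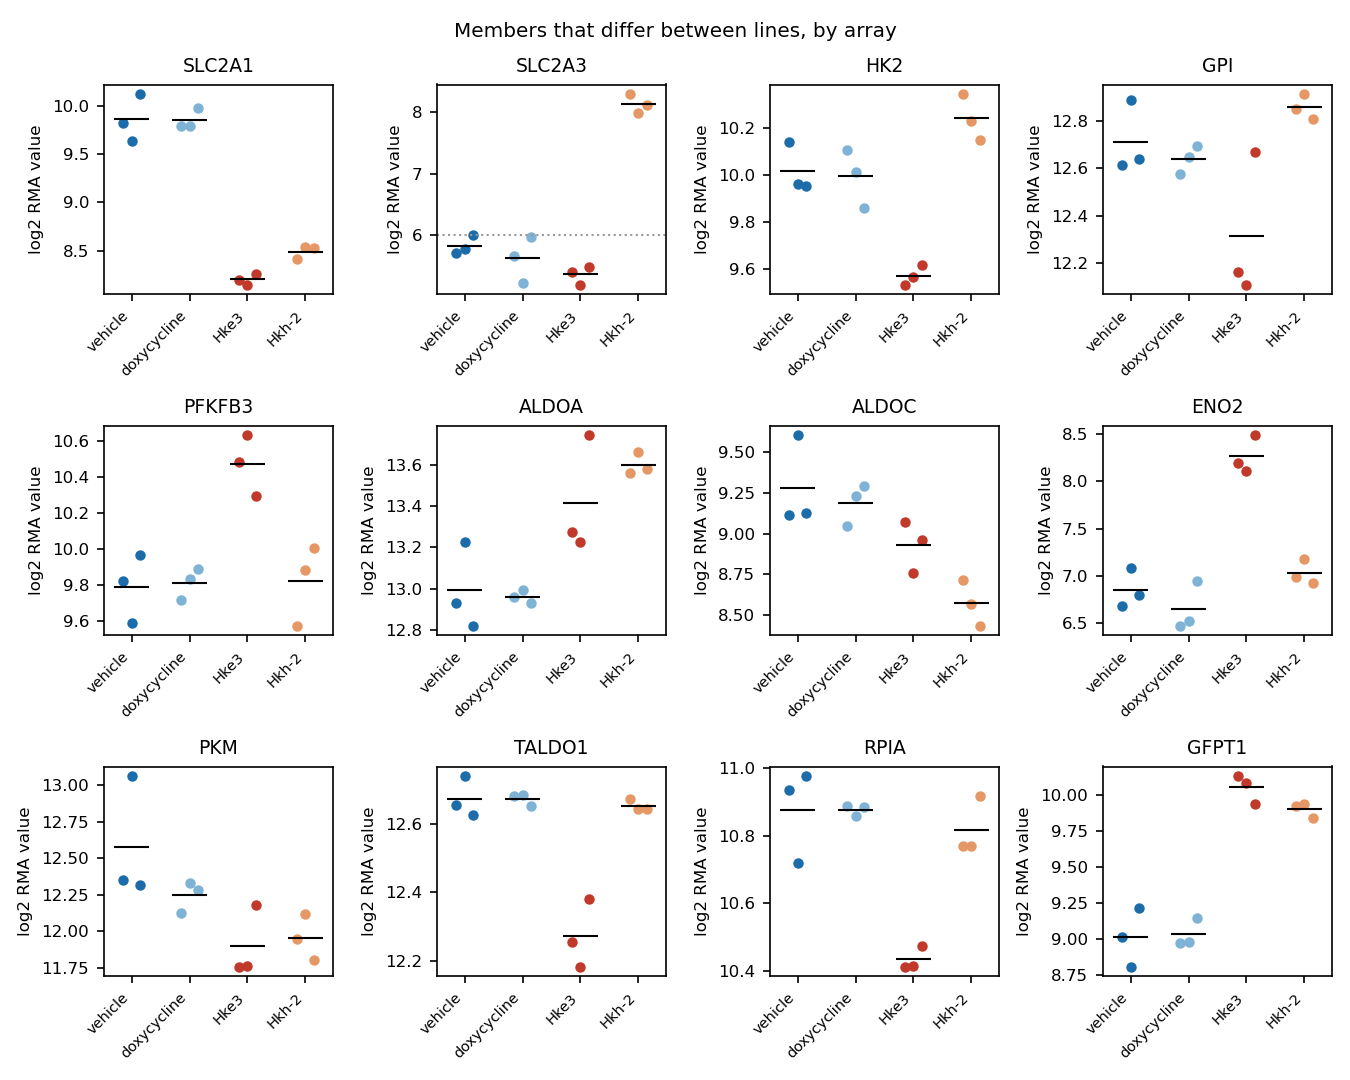
log2 RMA value of 12 members on every array (points) with group means (lines), for HCT116 control vehicle, HCT116 control doxycycline, Hke3 and Hkh-2, with a separate axis range for each gene. The dotted line in the SLC2A3 panel marks 6, the level taken as near background. HCT116 arrays lie above both lines for SLC2A1 and below both for GFPT1, while Hke3 alone stands apart for ENO2, TALDO1 and RPIA.

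At the pyruvate dehydrogenase step PDHA1, the subunit that carries the catalytic site, was higher in vehicle than in Hke3 by 0.28 (SE 0.0760, limma adjusted p = 0.00913) and differed from Hkh-2 by 0.02. Its arrays read 11.33, 11.37 and 11.32 in vehicle and 11.07, 10.93 and 11.18 in Hke3, with no overlap. PDHB and the kinase genes PDK1 and PDK3 were not called on their representative probe sets. Without both arrays that stood apart PDK3 was called against Hke3, at -0.25 (limma adjusted p = 0.0287). PDK1 read 7.57, 7.47 and 7.32 in vehicle, 7.38, 7.33 and 7.29 with doxycycline, 7.28, 7.62 and 7.37 in Hke3 and 7.46, 7.92 and 7.79 in Hkh-2. Its arrays overlapped between vehicle and both lines, with differences of 0.03 and -0.28 (limma adjusted p of 0.860 and 0.0919). PDK1 was called against Hkh-2 without Hkh-2 replicate 1, at -0.41 (limma adjusted p = 0.0154). The probe sets of PDK3 disagreed, since the 3 others tested were lower in vehicle than in Hkh-2, by at least 0.43 on one that was near background in vehicle and by differences of -0.58 and -0.64 on the others, where the representative one differed by -0.06.

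In the oxidative arm of the pentose phosphate pathway, PGD, which makes NADPH and ribulose-5-phosphate, was higher in vehicle than in Hke3 by 0.39 (SE 0.109, limma adjusted p = 0.0109), with Hke3 replicate 3 inside the range of the vehicle arrays. PGLS, the lactonase, read 8.86, 9.14 and 8.87 in vehicle, 8.95, 9.03 and 8.87 with doxycycline, 8.98, 9.01 and 9.22 in Hke3 and 9.33, 9.45 and 9.35 in Hkh-2. The vehicle arrays lay below those of Hkh-2, with a difference of -0.42 (SE 0.0941, limma adjusted p = 0.00373), and overlapped those of Hke3. A second probe set went the same way, at -0.40 (limma adjusted p = 0.0408 over all probe sets). The weakest of the 3 tested, near background in Hkh-2, gave the opposite direction, at least 0.28 higher in vehicle (limma adjusted p = 0.00336 over all probe sets), and with the mean of the probe sets PGLS was not called (-0.12, limma adjusted p = 0.243).

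In the non-oxidative arm, the ribose-5-phosphate isomerase RPIA read 10.93, 10.72 and 10.98 in vehicle, 10.89, 10.86 and 10.89 with doxycycline, 10.41, 10.41 and 10.47 in Hke3 and 10.77, 10.77 and 10.92 in Hkh-2. Hke3 lay below every other array. RPIA was higher in vehicle than in Hke3 by 0.44 (SE 0.0795, limma adjusted p = 0.000563) and differed from Hkh-2 by 0.06 (limma adjusted p = 0.607). TALDO1, the transaldolase, had the same pattern, with means of 12.67 in vehicle, 12.27 in Hke3 and 12.65 in Hkh-2 and a difference of 0.40 from Hke3 (SE 0.0697, limma adjusted p = 0.000473). The transketolase TKT and the epimerase RPE were not called against either line, with differences of -0.28 and -0.27 from Hke3. Without both arrays that stood apart both were called against Hke3, at -0.27 (limma adjusted p = 0.0220) and -0.29 (limma adjusted p = 0.00312). A weaker TKT probe set was lower than in both lines, by differences of -0.72 and -0.40.

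GFPT1 encodes the enzyme that sends fructose-6-phosphate into the hexosamine pathway, and it was lower in HCT116 cells than in both lines. It read 9.02, 8.81 and 9.22 in vehicle, 8.98, 8.98 and 9.15 with doxycycline, 10.13, 10.09 and 9.94 in Hke3 and 9.93, 9.94 and 9.84 in Hkh-2. Every HCT116 array lay below every array of the recombined lines. The difference was -1.04 against Hke3 (SE 0.101, limma adjusted p = 3.15e-06) and -0.89 against Hkh-2 (SE 0.101, limma adjusted p = 1.66e-05). All 4 GFPT1 probe sets were lower than in Hke3 and 2 of the 4 were lower than in Hkh-2. The brighter of the GFPT1 probe sets not of the kinds that can bind several transcripts gave -0.26 against Hkh-2 (limma adjusted p = 0.183). The other of these gave -0.44.

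**Figure D4:**
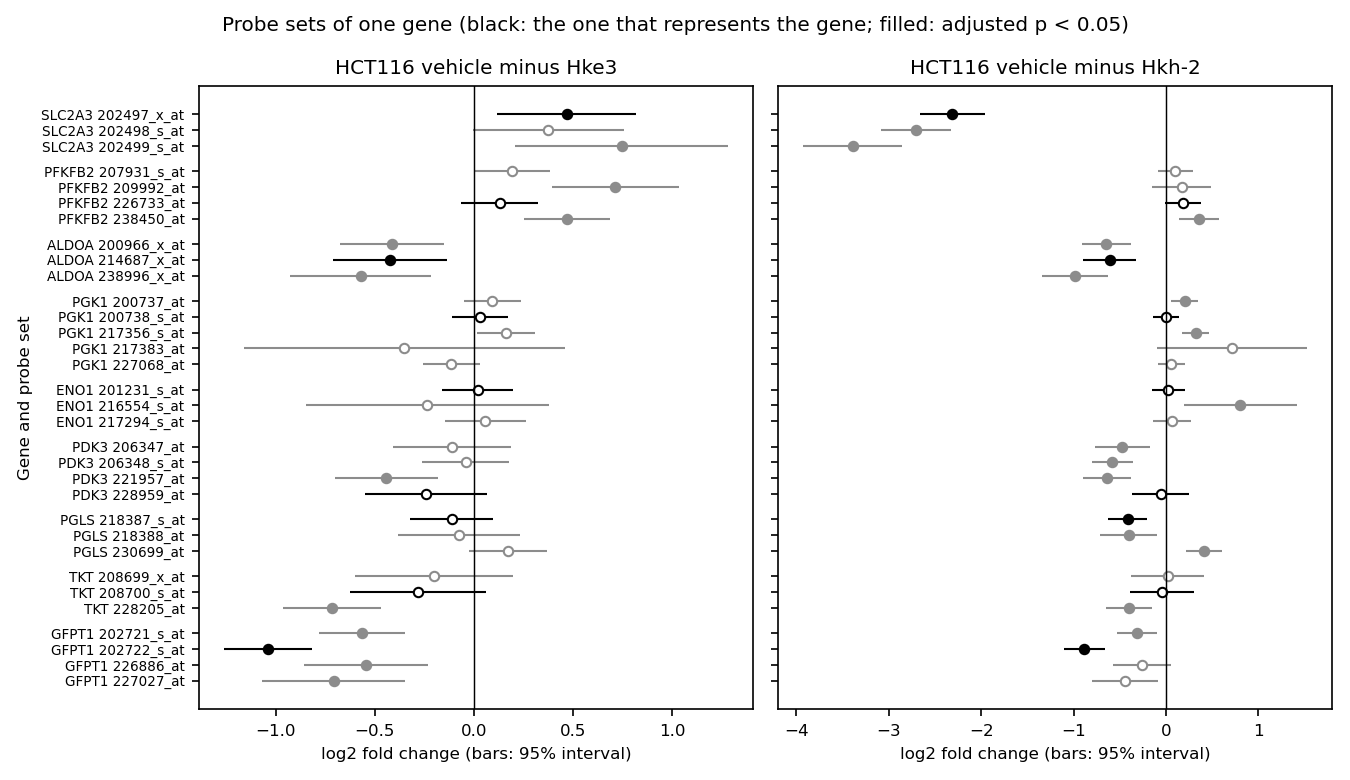
Difference of HCT116 control vehicle from Hke3 (left) and Hkh-2 (right) on the log2 scale for each tested probe set of 9 members, with 95% limma intervals. Black marks the probe set that represents the gene, and filled points have an adjusted p under 0.05 over all probe sets tested. The 3 ALDOA probe sets lie left of 0 in both panels, whereas those of PGLS lie on both sides of 0 against Hkh-2.

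At the level of probe sets, 15 of 76 were higher and 11 lower in vehicle than in Hke3, beside 23.3% and 21.4% of 27403 probe sets tested (44.7% called). Against Hkh-2, 10 were higher and 16 lower, beside 17% and 18.5% (35.5% called). Between Hke3 and Hkh-2, 5 were higher and 17 lower in Hke3, beside 17.1% and 18.9% (35.9% called), and with doxycycline 0 were called. In all 10 members had 1 probe set and 23 had more, up to 6.

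The recombined lines also differed from each other. Between Hke3 and Hkh-2, 12 members (36.4%) were lower and 3 (9.09%) higher in Hke3, beside 23.5% and 16.3% of all genes (39.8% called). The lower ones were SLC2A1, SLC2A3, HK1, HK2, GPI, PFKM, TPI1, PDHA1, PGLS, PGD, TALDO1 and RPIA. They span uptake, upper glycolysis, the pyruvate dehydrogenase step and both arms of the pentose phosphate pathway. Under cyclic loess the calls of SLC2A1, PFKM, TPI1 and PGLS were lost. The higher ones were PFKFB3, ALDOC and ENO2. Arrays did not overlap for 11 members below and 4 above, beside 28.2% and 19.8% of all genes. Without Hkh-2 replicate 2, 7 members were lower, and without both arrays that stood apart 15 were lower and 6 higher, beside 34.2% and 22.9%. Neither the vehicle arrays nor the doxycycline arrays enter these differences, but both enter the shared estimate of spread on which the calls rest.

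Doxycycline at 25 ng/ml, the background for the treated cells of the study, moved no member past the test. Of 33 members 0 were called by limma, as were 0% of all genes, and 0 members and 127 of the 12852 genes had an unadjusted p under 0.05. With the replicate number as a block the count was also 0. The differences from vehicle ranged from -0.33 (PKM) to 0.12 (PDK3), with 95% intervals that reached 0.131 to 0.385 to either side. No member had arrays that did not overlap, beside 2.45% of all genes above and 1.91% below.

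Beyond the members, 9 lists of 131 neighbouring genes were counted in the same fit, beside 24.6% higher and 23.2% lower than in Hke3 and 14.3% higher and 21.7% lower than in Hkh-2 among all genes tested. The lists are short, and nothing is called particular to them. In the hexosamine list 4 of 7 tested genes were lower and 2 higher than in Hke3, and 2 lower and 0 higher than in Hkh-2, against which 21.7% of all genes were lower. UAP1, which makes the activated sugar UDP-N-acetylglucosamine, read 10.78, 10.58 and 10.82 in vehicle, 10.81, 10.74 and 10.91 with doxycycline, 11.49, 11.46 and 11.48 in Hke3 and 11.37, 11.39 and 11.39 in Hkh-2. NAGK, the kinase that salvages N-acetylglucosamine, went the same way as UAP1 and GFPT1. The HCT116 arrays of UAP1 lay below all others, with differences of -0.75 (SE 0.0777, limma adjusted p = 5.62e-06) and -0.66 (SE 0.0777, limma adjusted p = 2.35e-05), and those of NAGK were -0.91 (limma adjusted p = 3.56e-07) and -0.64 (limma adjusted p = 1.14e-05).

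Among 8 other pentose phosphate genes tested, 3 were lower and 0 higher than in Hke3, against 5 lower and 1 higher for Hkh-2, beside 23.2% and 21.7% of all genes lower. PRPS1 turns ribose-5-phosphate into PRPP for nucleotide synthesis. It read 7.79, 7.73 and 7.80 in vehicle, 7.74, 7.52 and 7.81 with doxycycline, 11.37, 11.21 and 11.48 in Hke3 and 10.43, 10.61 and 10.64 in Hkh-2. The groups lay far apart, and the differences were -3.58 (SE 0.0960, limma adjusted p = 1.83e-11) and -2.79 (SE 0.0960, limma adjusted p = 1.77e-10). Its second probe set gave -4.18 and -3.12. DERA, which cleaves deoxyribose phosphate, differed by -0.72 and -0.36 in the same direction.

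Of 15 other isoenzymes and shunts of glycolysis, 3 were higher and 6 lower than in Hke3, against 5 higher and 4 lower for Hkh-2. HKDC1, a hexokinase-like gene named here after its values were seen, had means of 5.81 in vehicle, 5.76 with doxycycline, 9.78 in Hke3 and 5.46 in Hkh-2. Hke3 was thus higher by at least 3.78 than HCT116 vehicle cells and than Hkh-2. HKDC1 passed the filter at 6 only through Hke3 and was picked by these values, so no p-value is given. The glycerol phosphate dehydrogenase genes split, GPD1L being higher than in both lines by 0.80 and 0.43 and GPD2 lower by differences of -0.69 and -0.35.

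In the list of gluconeogenesis and glycogen, 5 of 10 were higher and 2 lower than in Hke3, against 3 higher and 3 lower for Hkh-2. UGP2, which makes the UDP-glucose for glycogen, was lower than in both lines, at -1.29 and -0.61, and PYGL, the liver-type glycogen phosphorylase, was higher by 0.62 and 0.42. Of 8 genes for entry of pyruvate to mitochondria, 2 were higher and 2 lower against each line. MPC2, a subunit of the pyruvate carrier, differed by -0.46 and -0.40, and PDPR, the regulatory subunit of pyruvate dehydrogenase phosphatase, was higher by 0.69 and 0.25. Of the 6 other glucose and fructose transporters, SLC2A11 was higher than in Hke3 (0.54) and SLC2A12 lower than in both lines (-0.88 and -0.61). Of the 6 partners of monocarboxylate transport, EMB was lower than in Hke3 (-0.24). SLC16A5 was higher than in both lines on its representative probe set (0.82 and 0.43). Its other probe sets were also higher than in Hke3. They differed from Hkh-2 by 0.26 and 0.28 without passing the test (limma adjusted p = 0.156 for each over all probe sets).

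Among 13 regulators of glycolysis, 7 were higher and 3 lower than in Hke3, against 3 higher and 2 lower for Hkh-2, beside 24.6% and 14.3% of all genes higher. Of these regulators MLXIPL was higher than in both lines, by 0.53 (limma adjusted p = 0.0136) and 0.52 (limma adjusted p = 0.0190). TXNIP was also higher, by 0.22 (limma adjusted p = 0.0188) and 0.20 (limma adjusted p = 0.0366), whereas HIF1A was lower. HIF1A, the oxygen-regulated subunit of the hypoxia-inducible factor, read 12.36, 12.16 and 12.42 in vehicle, 12.36, 12.35 and 12.36 with doxycycline, 13.12, 13.18 and 13.04 in Hke3 and 12.59, 12.63 and 12.68 in Hkh-2. All HCT116 arrays lay below all others, by differences of -0.80 (SE 0.0775, limma adjusted p = 3.03e-06) and -0.32 (SE 0.0775, limma adjusted p = 0.00613). Of 19 hypoxia-inducible genes outside glycolysis 5 were higher and 11 lower than in Hke3, against 4 higher and 7 lower for Hkh-2, with 7 lower than in both, beside 23.2%, 21.7% and 12.6% of all genes lower. The list's median difference was -0.45 from Hke3 and -0.08 from Hkh-2, beside 0.04 and -0.02 over all genes. ADM, a vasodilator peptide gene of that list, was lower than in both lines, at -1.72 (SE 0.119, limma adjusted p = 1.35e-07) and -1.52 (SE 0.119, limma adjusted p = 4.90e-07). Doxycycline called no gene of the 9 lists.

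**Figure D5:**
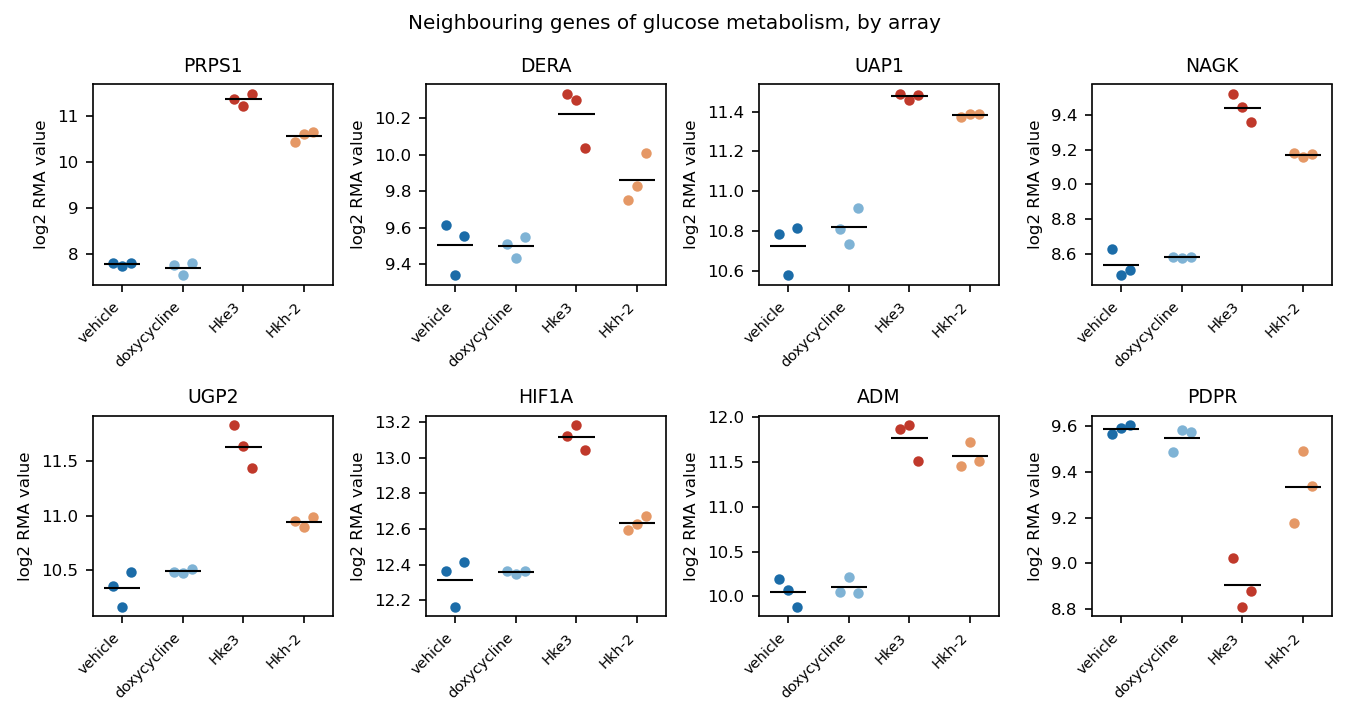
log2 RMA value of 8 genes of the neighbouring lists on every array (points) with group means (lines), with a separate axis range for each gene. The HCT116 arrays lie below both recombined lines for PRPS1, DERA, UAP1, NAGK, UGP2, HIF1A and ADM. The PDPR vehicle arrays lie above both.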

How the data were processed

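Total RNA from the 4 groups was hybridised to 3 arrays each. The deposited values are log2 signals that the authors made with RMA per the submitters' processing notes; the RMA version, the chip definition and the arrays normalized together are not given in the sources used here. Knockdown arrays of the series were not analysed here. Groups and replicate numbers came from the labels. The gene altered by recombination is not reported here.

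The members and lists were chosen with earlier results of these data known. From the deposited log2 values, 41097 probe sets named 1 gene, of which 41043 matched RefSeq (GRCh38.p14) by gene ID; 1801 with several symbols, 3 of them including a member, and 11777 unnamed here were not used for genes. The probe set brightest on average stood for its gene, and genes with a group mean of 6 or more in at least 1 group were kept. limma (version 3.58.1, R 4.3.3, with lmFit, contrasts.fit and eBayes) estimated 4 group means from all 12 arrays, with Benjamini-Hochberg adjustment over 12852 genes and, for single probe sets, over 27403. Values on every array are given for members called with 1 sign and past 0.5 in both line comparisons, the 4 largest called in each direction of each comparison, and the largest of each step. The procedure was tested on simulated data. Precision is limited by the number of arrays: the smallest two-sided exact p for 3 against 3 is 0.1. Numbers in the labels were taken to pair vehicle and doxycycline arrays, whose same-numbered deviations correlated with r = 0.228, 0.212 and 0.453, and no other groups. Between vehicle and Hkh-2 arrays these were -0.0459, 0.422 and 0.337, and between vehicle and Hke3 arrays 0.355, -0.578 and -0.580. The correlations therefore do not single out the vehicle and doxycycline arrays as paired. The alternatives were other summaries of probe sets, filters, normalizations, fits, control arrays, a size threshold, the replicate block and leaving out arrays, of which the block within vehicle and doxycycline arrays alone was chosen after seeing the data.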

Additional observations from a re-analysis of the deposited data

Results flagged for a closer look

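The difference between HCT116 vehicle cells and a recombined line was not the same for Hke3 and Hkh-2 in 15 of the 33 members, by the limma test of Hke3 minus Hkh-2 at an adjusted p under 0.05, in which the shared vehicle arrays cancel and by which 39.8% of all genes tested were called. In uptake and the first steps 6 members were lower in Hke3 than in Hkh-2, with log2 differences of -0.29 for SLC2A1, -2.78 for SLC2A3 (Hke3 near background, so at least 2.13 in size), -0.58 for HK1, -0.67 for HK2, -0.54 for GPI and -0.22 for PFKM. In the middle and lower steps the differences were -0.41 for TPI1 and -0.26 for PDHA1, whereas PFKFB3 was higher in Hke3 by 0.65, ALDOC by 0.36 and ENO2 by 1.24. In the pentose phosphate pathway they were -0.30 for PGLS, -0.42 for PGD, -0.38 for TALDO1 and -0.38 for RPIA. The nearest to the threshold were SLC2A1, PFKM and ALDOC, with limma adjusted p of 0.0481, 0.0459 and 0.0492. With each array's median subtracted, the calls of SLC2A1 (0.0595) and PFKM (0.0515) were lost. Under cyclic loess those of SLC2A1 (0.0790), PFKM (0.0946), TPI1 (0.0554) and PGLS (0.0501) were lost, all by limma adjusted p. Groups of 3 arrays are too small for a test of outlying samples.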

How the results depend on the processing

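Among the named members against the recombined lines, no called difference reversed its direction under the alternatives run, and 717 values of named members stayed on their side of the threshold, 57 lost a call and 10 gained one. With the mean of a gene's probe sets, 7 members were higher than in Hkh-2 and 5 were higher in Hke3 than in Hkh-2. Without probe sets that can bind several transcripts, which left 21 members, 5 were higher than in Hke3, 5 lower in Hke3 than in Hkh-2, and 2 were higher than in both lines and 1 lower. With the compared groups fitted alone, 7 were higher than in Hke3 and 1 was lower than in both. With an absolute log2 difference of at least 1 required, the counts higher and lower were 1 and 2 for Hke3, 1 and 1 for Hkh-2, 1 and 1 between the lines, and 1 and 0 for both lines together. Without both arrays that stood apart, 7 were lower than in Hke3 and 6 higher in Hke3 than in Hkh-2. Leaving out single arrays gave 7 to 14 members higher and 3 to 6 lower than in Hke3, 2 to 5 and 4 to 7 for Hkh-2, 2 to 4 and 7 to 14 for Hke3 against Hkh-2, 2 to 4 higher and 1 to 2 lower than in both, and 0 with doxycycline. Shares of all genes are given above only for the runs without both arrays that stood apart. The other counts under alternatives, here and elsewhere, show how the member counts moved and nothing particular to the members. The causes were not tested.

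With the replicate number as a block, 10 members were higher and 4 lower than in Hke3; counts were 4 and 5 for Hkh-2, 2 and 11 for Hke3 against Hkh-2, and 0 with doxycycline, also in the block of vehicle and doxycycline arrays alone. Among named members against a recombined line, the pairing changed 1 call, ALDOC against Hke3 (0.35, limma adjusted p = 0.0671), and for 6 of 12 arrays the best match in another group had the same number. Near-background signal and the brightest members limit what differences can show.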
